A study of Mus musculus with 4 samples.

Results

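Histone cluster 1 is the largest group of histone genes in the mouse and lies on chromosome 13. Its members were taken as the lines of the deposited expression files whose symbol begins with Hist1h and whose position is on chromosome 13. There were 57 such lines, or gene rows, out of 5847 rows that all 4 files share and 23021 rows in each of 3 of the files. They carry 53 symbols, because Hist1h2ao, Hist1h2ap, Hist1h2bq and Hist1h4n are each listed at more than 1 place. By class there were 6 rows of H1, 15 of H2A, 15 of H2B, 9 of H3 and 12 of H4. Members were chosen by symbol and position, and the cluster itself was selected on the FPKM of these same 4 libraries, so every difference below is a description and supports nothing further.

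Whole retinas were taken from mice aged about 8 weeks, on a mixed background of C57BL/6 and 129. The injured mice, called DTA, had the genotype Msi1-CreERT2/+; R26R-DTA/+, in which a Cre recombinase driven from the Msi1 locus and switched on by a ligand permits cells to make diphtheria toxin fragment A, a poison of protein synthesis. Control mice were +/+; R26R-DTA/+, so they carried the toxin allele but no Cre. There was 1 library for DTA at day 1 after injury, 1 for control at day 1, 1 for DTA at day 5 and 1 for control at day 5, and how many mice each stands for is not stated in the labels. Which retinal cells recombined, and whether control mice received the ligand, are likewise not stated.

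Histones package DNA. Pairs of H2A, H2B, H3 and H4 form the octamer around which DNA winds, and the linker histone H1 binds where DNA enters and leaves it. Genes of this cluster are of the replication-dependent kind: their mRNAs are made mainly during S phase, have no introns and usually end in a short stem-loop instead of a poly(A) tail. The stem-loop-binding protein, Slbp, holds that end during processing and translation. In cells that have stopped dividing, such as the neurons of an adult retina, some of these genes make longer mRNAs with a poly(A) tail, and replacement histones encoded elsewhere take over much of the supply.

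The stem-loop was looked for because it sets which mRNAs lack a tail. Bases GGNNCTTTTNAGNNCC were searched on the coding strand of the mm9 genome in the 150 bases after each stop codon. They were found in 54 of 57 members and in 3 of 17472 other protein-coding genes, a share of 0.0172%. The other genes were searched in annotated transcripts with at least 150 bases after the stop codon. All symbols beginning with Hist were left out of them, so the share does not cover the other histone clusters. Hist1h2an, Hist1h3g and Hist1h4a had no match in that window. The loops below belong to the members that the results turn on, 5′ to 3′ with the stem and loop in capitals.
Hist1h4h: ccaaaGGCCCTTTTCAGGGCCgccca
Hist1h4i: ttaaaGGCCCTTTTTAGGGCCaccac
Hist1h4j: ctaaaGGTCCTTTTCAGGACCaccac
Hist1h4k: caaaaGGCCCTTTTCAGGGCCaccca
Hist1h3d: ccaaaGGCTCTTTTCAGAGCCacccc
Hist1h2bc: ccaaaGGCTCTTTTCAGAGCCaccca
Hist1h1c: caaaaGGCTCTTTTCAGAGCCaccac
In mm9 coordinates the loop of Hist1h4h lies at chr13:23623322-23623347 on the plus strand, that of Hist1h4i at chr13:22132830-22132855 on the minus strand, and that of Hist1h1c at chr13:23831376-23831401 on the plus strand. The other printed loops are at chr13:21827301-21827326 (Hist1h4j, plus), chr13:21842014-21842039 (Hist1h4k, minus), chr13:23668108-23668133 (Hist1h3d, plus) and chr13:23776511-23776536 (Hist1h2bc, plus).

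The core of the loop differed by class. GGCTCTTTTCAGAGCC stood in 35 members, all of them H1, H2A, H2B or H3, and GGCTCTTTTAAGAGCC in 8 more of H1, H2B and H3. Among the H4 members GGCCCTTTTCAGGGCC stood in 8, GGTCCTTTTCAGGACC in 2 and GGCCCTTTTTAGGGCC in Hist1h4i alone.

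Where a row ends decides which fragments it can count. For 30 of the 57 members, 9 of the 12 H4 rows among them, the row was exactly the coding sequence, and the rows of 31 members stopped before the stem-loop. At the other end, 11 rows ran 200 bases or more past the stop codon. Hist1h1c ran 880 genomic bases past it and Hist1h2bc 7868.

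Members of a class are near copies, so the authors' assignment of reads that fit several of them bears on every value, and the labels do not state it. Pairwise identity of coding sequence had a median of 95.4% in H4 (lowest pair 92.3%), 97.8% in H3, 98.0% in H2A, 97.6% in H2B and 71.2% in H1. Of all 50-base windows in a member's coding sequence, the median share found in no other coding sequence was 28.1% in H4, 23.8% in H3, 14.2% in H2A, 17.2% in H2B and 89.1% in H1. No window of Hist1h4m and of either Hist1h4n row was unique, and 6 H2A rows and 2 H2B rows had none either. Single rows of H2A, H2B, H3 and H4 are therefore uncertain and not independent of each other, and the sum over a class is less exposed to how reads were shared out.

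The first 60 coding bases of 4 H4 members and 3 H2B members show how little separates them, apart from Hist1h2ba. Capitals mark bases that differ from the most common base of the class at that place.
Hist1h4h: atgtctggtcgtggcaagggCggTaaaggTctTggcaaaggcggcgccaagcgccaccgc
Hist1h4i: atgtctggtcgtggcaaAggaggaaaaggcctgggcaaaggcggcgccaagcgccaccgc
Hist1h4a: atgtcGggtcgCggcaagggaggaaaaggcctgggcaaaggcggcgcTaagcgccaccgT
Hist1h4b: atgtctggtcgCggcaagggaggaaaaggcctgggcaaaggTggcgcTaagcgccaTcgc
Hist1h2bj: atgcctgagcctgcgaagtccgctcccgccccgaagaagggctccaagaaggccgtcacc
Hist1h2bc: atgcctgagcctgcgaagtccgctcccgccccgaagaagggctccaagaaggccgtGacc
Hist1h2ba: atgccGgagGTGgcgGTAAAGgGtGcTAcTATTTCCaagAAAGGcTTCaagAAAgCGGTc
Hist1h2ba, the H2B made in testis, differed from the class at 36 of these 60 bases, while Hist1h2bj differed at 0 and Hist1h2bc at 1. These stretches start at the start codon, in mm9 at chr13:23622984-23623043 (Hist1h4h, plus strand), chr13:22133133-22133192 (Hist1h4i, minus), chr13:23852967-23853026 (Hist1h4a, minus), chr13:23848890-23848949 (Hist1h4b, plus), chr13:22135099-22135158 (Hist1h2bj, plus), chr13:23776101-23776160 (Hist1h2bc, plus) and chr13:24025966-24026025 (Hist1h2ba, minus).

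Levels are the authors' FPKM, which count fragments per kilobase of transcript relative to the whole library. Differences are of log2(FPKM + 1); a fold is a ratio of FPKM and is printed only for values of at least 1. To be called, a row needed a difference of 1 or more in either direction and 5 FPKM or more in 1 of the libraries compared. For DTA against control of the same day, its difference also had to exceed in size the one between the controls. With 1 library per group there is no replicate, no standard deviation and no test. Depth was estimated from the smallest steps in the values at 97.7 M fragments for DTA day 1, 74.1 M for control day 1, 28.2 M for DTA day 5 and 35.5 M for control day 5. For members at 1 FPKM or more, the typical (median) half-width of the authors' interval, relative to the level, was 10.9% in DTA day 1, 13.3% in control day 1, 19.5% in DTA day 5 and 21.7% in control day 5. Those intervals hold counting and assignment error only. In 41, 35, 33 and 31 of the 57 members of those libraries the upper bound lay below the FPKM, so no call was based on the bounds. Their half-widths also set how near an alternative sum, median or single row had to lie to be taken as close to the reported value.

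The classes of the cluster moved apart in the injured retina. H4 had the largest ratio of the classes on both days: its summed level was 94.0 FPKM in DTA and 44.2 FPKM in control at day 1, a ratio of 2.13, and 95.6 FPKM in DTA and 31.5 FPKM in control at day 5, a ratio of 3.04. H3 summed to 13.8 FPKM in DTA and 7.86 FPKM in control at day 1, and to 23.1 FPKM in DTA and 12.5 FPKM in control at day 5. H1 went the other way at day 5, with 22.9 FPKM in DTA and 79.2 FPKM in control, a ratio of 0.289, after 60.7 FPKM in DTA and 73.2 FPKM in control at day 1. Whole retinas were sequenced, so fewer cells of a type and less RNA per cell cannot be told apart for any of these values.

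H2A and H2B differed less. H2A summed to 67.1 FPKM in DTA and 57.4 FPKM in control at day 1, and to 82.3 FPKM in DTA and 60.7 FPKM in control at day 5, ratios of 1.17 and 1.36. H2B, which held between 51.0% and 56.2% of the cluster's summed level in every library, had ratios of 1.14 at day 1 and 1.23 at day 5. Over all 57 members the sums were 480.4 FPKM in DTA and 396.7 FPKM in control at day 1, and 511.7 FPKM in DTA and 418.4 FPKM in control at day 5. The share of H4 in that sum was 19.6% in DTA and 11.1% in control at day 1, and 18.7% in DTA and 7.53% in control at day 5.

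**Figure D1:**
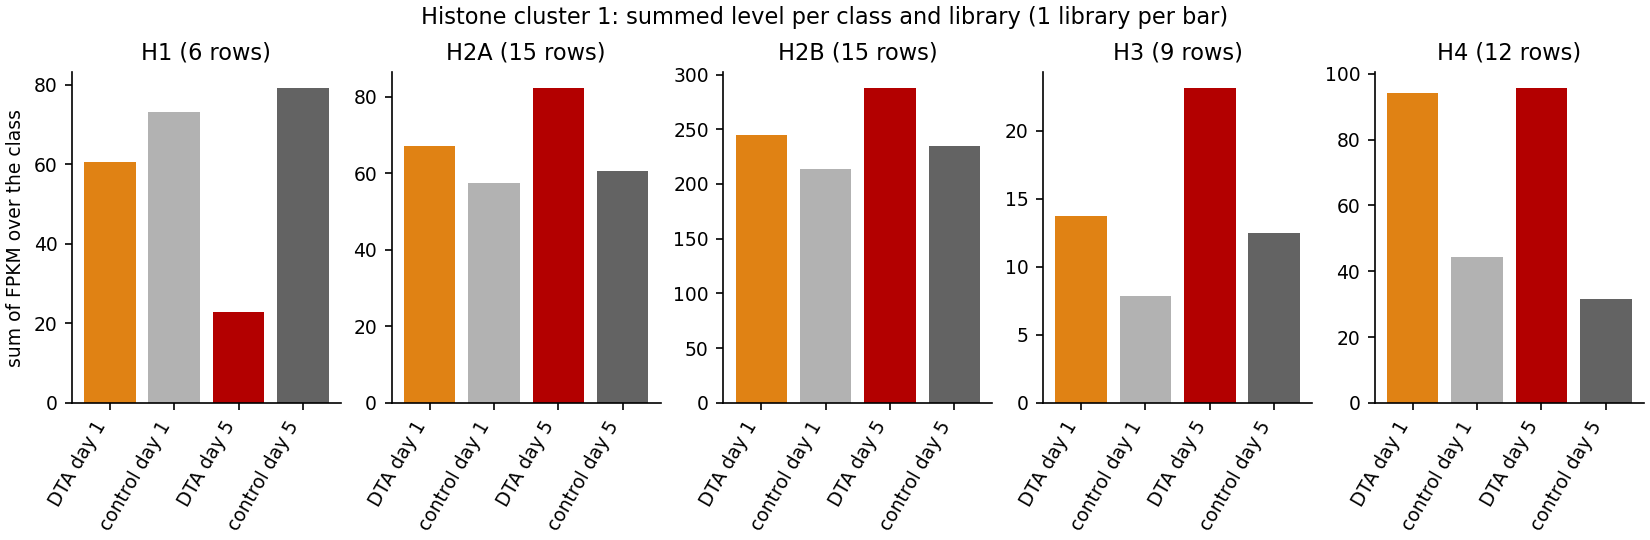
Summed FPKM over the rows of each histone class, 1 bar per library, with a separate linear axis from 0 for each class. H4 stands at 94.0 and 95.6 FPKM in the DTA libraries against 44.2 and 31.5 FPKM in the controls, and H1 is lowest at 22.9 FPKM in DTA day 5.

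By the middle member of each class, H4 and H3 also came first, while H2B stood slightly above H2A, the reverse of the sums, and H1 was near 0. Class medians were taken over all members, with no floor. At day 1 the median difference, DTA minus control, was 0.87 in H4, 0.38 in H3, 0.23 in H2B, 0.20 in H2A and -0.02 in H1, beside 0.05 over all rows at 5 FPKM or more. At day 5 it was 1.41 in H4, 0.52 in H3, 0.38 in H2B, 0.35 in H2A and 0.14 in H1, beside 0.26 over all rows at 5 FPKM or more. Rows in general thus leaned upwards at day 5. Scaling each library by its median ratio gave a log2 ratio of the H4 sum of 1.34, against 1.60 unscaled, in the same direction.

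By the size rule 3 members were higher and 0 lower at day 1, all 3 of them H4. There 2.63% of the 2628 rows at 5 FPKM or more were called (2.09% higher and 0.533% lower). These rows come from the shorter DTA day 1 file, so the day 1 background covers another set of rows than that of day 5. At day 5 there were 9 higher, all of H4, and 1 lower, Hist1h1c, where 8.6% of 9925 rows were called (6.82% higher and 1.78% lower). The floor of 5 FPKM was met by 33 members at day 1 and 34 at day 5, 12 of them on each day in only 1 of the libraries compared. Between the controls 0 members were called, where 2.59% of 9336 rows were (0.868% higher and 1.72% lower).

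**Figure D2:**
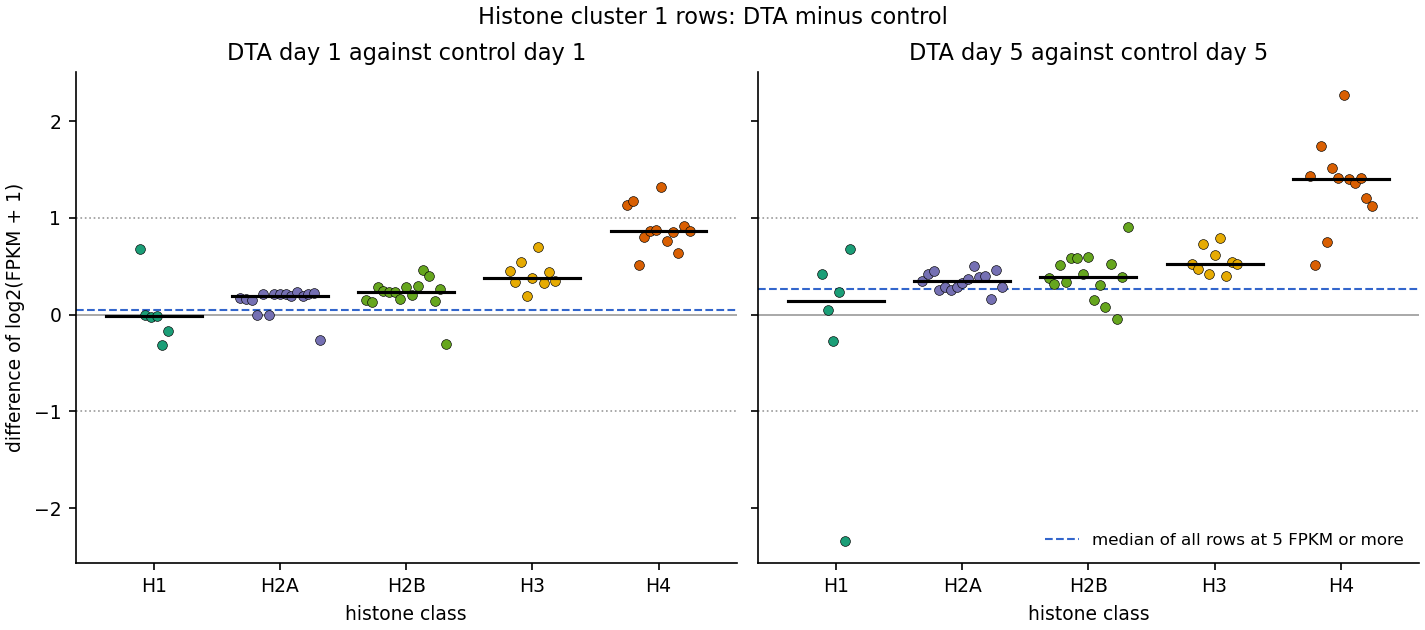
Difference of log2(FPKM + 1), DTA minus control, for each member by class at day 1 (left) and day 5 (right). Points are rows, black bars class medians, the dashed line the median of all rows at 5 FPKM or more (0.05 and 0.26) and dotted lines the size of 1 used for calls. The H4 medians, 0.87 and 1.41, are the highest of the classes, though the lowest H4 rows (0.51 on each day) lie among rows of other classes, and Hist1h1c lies alone at -2.34 at day 5.

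H4 is the most conserved of the core histones, and its genes encode practically the same protein. Hist1h4h had the largest difference of any H4 row on both days. It stood at 6.59 FPKM in DTA and 2.04 FPKM in control at day 1, a 3.23-fold level, and at 8.68 FPKM in DTA and 1.00 FPKM in control at day 5, an 8.67-fold level. Its differences were 1.32 and 2.27, placing it at position 49 from the top among 2628 rows at day 1 and 169 among 9925 at day 5. The sets of rows behind these ranks differ, because the DTA day 1 file is shorter. By the depth estimate at most 17.0 fragments lay behind its value in control day 5 and at most 117 behind that in DTA day 5, so the fold at day 5 rests on few reads.

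Hist1h4i was the most abundant H4 row, with 17.0 FPKM in DTA and 8.83 FPKM in control at day 1, and 17.2 FPKM in DTA and 5.86 FPKM in control at day 5. Hist1h4j had 8.23 FPKM in DTA and 3.21 FPKM in control at day 1, and 7.94 FPKM in DTA and 2.31 FPKM in control at day 5. Hist1h4k had 12.1 FPKM in DTA and 4.81 FPKM in control at day 1, and 8.24 FPKM in DTA and 5.49 FPKM in control at day 5. Hist1h4j was called higher on both days, with differences of 1.13 and 1.43. Hist1h4i was called at day 5 (1.41) and missed the size at day 1 (0.87). Hist1h4k was the reverse, called at day 1 (1.18) and at 0.51 at day 5.

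A further group of H4 rows had like levels. Hist1h4a had 6.72 FPKM in DTA and 3.24 FPKM in control at day 1, and 7.42 FPKM in DTA and 2.87 FPKM in control at day 5. Hist1h4b had 6.90 FPKM in DTA and 3.19 FPKM in control at day 1, and 7.40 FPKM in DTA and 2.65 FPKM in control at day 5. Hist1h4c had 6.44 FPKM in DTA and 3.80 FPKM in control at day 1, and 7.42 FPKM in DTA and 2.17 FPKM in control at day 5. In each of these, both DTA libraries lay above both controls.

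Hist1h4d and Hist1h4f followed the same course. Hist1h4d had 5.87 FPKM in DTA and 2.81 FPKM in control at day 1, and 7.28 FPKM in DTA and 2.24 FPKM in control at day 5. Hist1h4f had 5.85 FPKM in DTA and 3.04 FPKM in control at day 1, and 7.13 FPKM in DTA and 2.08 FPKM in control at day 5. The day 5 differences of Hist1h4a, Hist1h4b, Hist1h4c, Hist1h4d and Hist1h4f were 1.12, 1.20, 1.41, 1.35 and 1.40, all past the size rule. With median-ratio scaling Hist1h4a and Hist1h4b no longer passed it, and against the control of day 1 Hist1h4a and Hist1h4c did not. At day 1 the same rows were at 0.86, 0.92, 0.63, 0.85 and 0.76, all short of it.

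The remaining H4 rows are identical in coding sequence or overlap. Hist1h4n at 21923716 had 9.31 FPKM in DTA and 4.65 FPKM in control at day 1, and 9.07 FPKM in DTA and 2.52 FPKM in control at day 5, and was called at day 5 (1.51). Hist1h4n at 21903653, of low data status in all 4 files, had 7.95 FPKM in DTA and 4.14 FPKM in control at day 1, and 3.69 FPKM in DTA and 1.78 FPKM in control at day 5. Hist1h4m, which lies over that second row, ranged from 0.434 FPKM in control day 1 to 4.14 FPKM in DTA day 5. The row at 21903653 was the exception to the separation: its DTA day 5 value lay below its control day 1 value.

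Of the 12 H4 rows, 11 thus had both DTA libraries above both controls, beside 41.7% of 2782 rows at 5 FPKM or more. The floor was met by 11 H4 rows at day 1 and 10 at day 5, but by 10 and 8 of these in only 1 of the libraries compared. In all, at most 3358 fragments lay behind the H4 sum in DTA day 1, 1198 in control day 1, 1002 in DTA day 5 and 403 in control day 5. Leaving out the rows that end at the coding sequence kept Hist1h4h, Hist1h4i and Hist1h4m, and the log2 ratio of the H4 sum at day 5 was then 2.02.

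**Figure D3:**
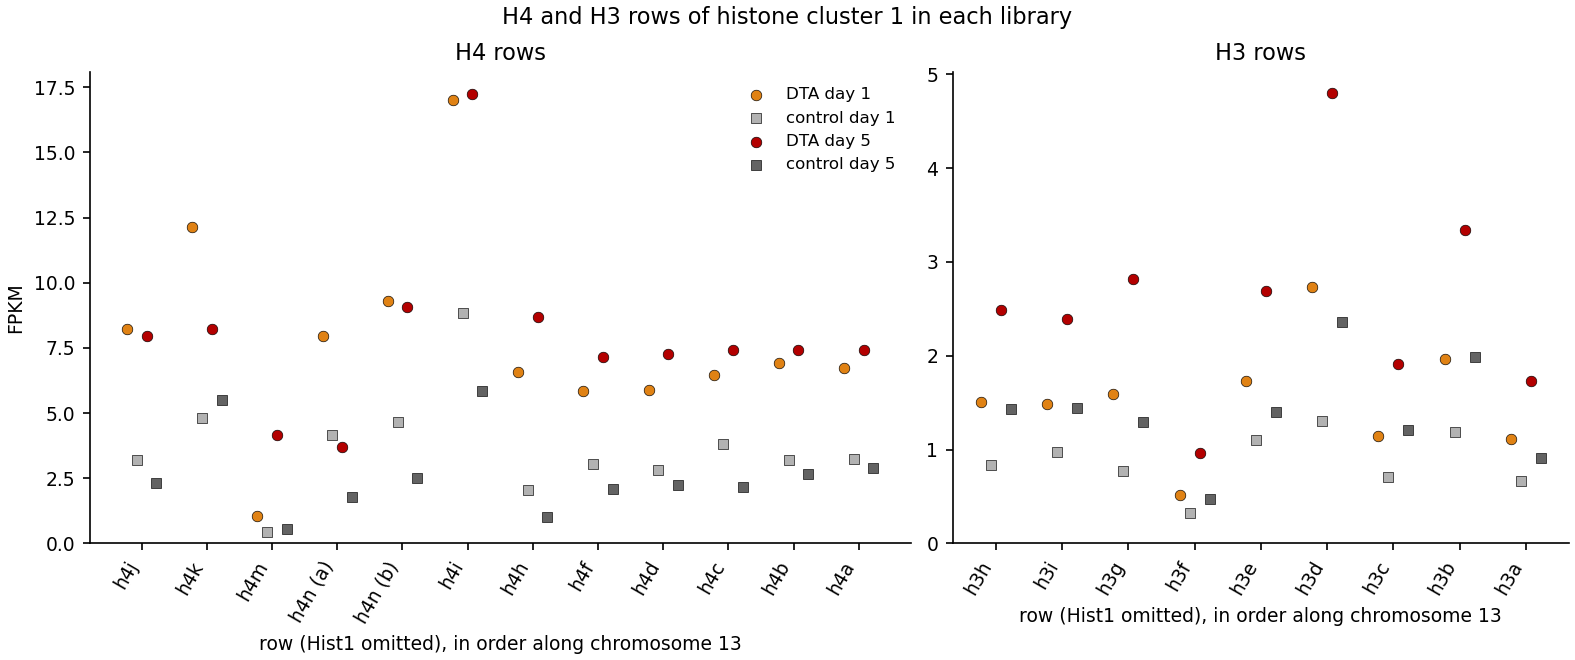
FPKM of each H4 row (left) and H3 row (right) in the 4 libraries, in order along chromosome 13, on linear axes from 0 that differ between the panels. Circles are DTA and squares control; Hist1h4n (a) is the row at 21903653 and (b) the row at 21923716. In H4 the circles of both days lie above the squares except for Hist1h4n (a), and Hist1h3d reaches 4.80 FPKM in DTA day 5.

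H3 pairs with H4 in the nucleosome, and the cluster's H3 genes encode the replication-dependent forms. None of the 9 rows reached 5 FPKM, so none could be called. Hist1h3d was highest, with 2.73 FPKM in DTA and 1.30 FPKM in control at day 1, and 4.80 FPKM in DTA and 2.36 FPKM in control at day 5. Its ratio was 2.1 at day 1 and 2.03 at day 5. All 9 rows were higher in DTA than in control on both days, by 0.19 to 0.70 at day 1 and 0.40 to 0.79 at day 5. Among all rows at 1 FPKM or more, 2064 of 3580 were higher at day 1 and 9830 of 13504 at day 5.

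The other H3 rows were low and alike. Over the 4 libraries Hist1h3a ranged from 0.669 to 1.73 FPKM, Hist1h3b from 1.19 to 3.34, Hist1h3c from 0.708 to 1.91 and Hist1h3e from 1.10 to 2.69. Hist1h3g ranged from 0.769 to 2.82 FPKM, Hist1h3h from 0.837 to 2.49 and Hist1h3i from 0.969 to 2.39, while Hist1h3f stayed below 1 FPKM. H3 also differed between the controls, with a sum of 12.5 FPKM at day 5 and 7.86 FPKM at day 1, a ratio of 1.59 that is close to its DTA ratios of 1.75 and 1.85. In H4 the control sum at day 5 was 0.713 of that at day 1.

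H2A forms a dimer with H2B. Hist1h2ad reached the highest H2A level, in DTA day 5, with 6.92 FPKM in DTA and 5.94 FPKM in control at day 1, and 8.52 FPKM in DTA and 6.24 FPKM in control at day 5. Hist1h2ah had 7.00 FPKM in DTA and 5.92 FPKM in control at day 1, and 8.32 FPKM in DTA and 6.42 FPKM in control at day 5. Hist1h2ai had 6.71 FPKM in DTA and 5.82 FPKM in control at day 1, and 8.04 FPKM in DTA and 6.11 FPKM in control at day 5. These rows were 1.15 to 1.18 times as high in DTA at day 1 and 1.30 to 1.37 times at day 5, short of the size rule on both days.

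Hist1h2af showed the largest H2A difference, 0.51 at day 5, with 5.02 FPKM in DTA and 4.26 FPKM in control at day 1, and 6.65 FPKM in DTA and 4.39 FPKM in control at day 5. Hist1h2ab had 4.46 FPKM in DTA and 3.69 FPKM in control at day 1, and 5.62 FPKM in DTA and 3.82 FPKM in control at day 5. Hist1h2ag had 4.93 FPKM in DTA and 4.12 FPKM in control at day 1, and 6.15 FPKM in DTA and 4.53 FPKM in control at day 5. Both rows were higher in DTA on each day by less than the size rule asks.

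Hist1h2ak had 5.10 FPKM in DTA and 4.47 FPKM in control at day 1, and 6.43 FPKM in DTA and 4.54 FPKM in control at day 5. Hist1h2an had 5.81 FPKM in DTA and 5.12 FPKM in control at day 1, and 7.47 FPKM in DTA and 5.18 FPKM in control at day 5. Hist1h2ap, at its row starting at 21902336, had 6.86 FPKM in DTA and 5.77 FPKM in control at day 1, and 7.90 FPKM in DTA and 6.30 FPKM in control at day 5; its row at 21924952 was listed at 6.86, 5.76, 7.90 and 6.30 FPKM in the same order. The 2 Hist1h2ap rows carry the low data status, and the longer Hist1h2ao rows laid over them were listed near 0, with a highest value of 0.195 FPKM in DTA day 5.

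Of the lower H2A rows, Hist1h2ac ranged from 2.93 to 3.54 FPKM, Hist1h2ae from 2.53 to 3.92 FPKM and Hist1h2aa from 0.756 to 1.5 FPKM. All 15 H2A rows were higher in DTA at day 5, by 0.16 to 0.51, and 12 of 15 were at day 1. Among all rows at 5 FPKM or more, 7401 of 9925 were higher at day 5 and 1566 of 2628 at day 1. In 12 of 15 H2A rows both DTA libraries lay above both controls, and the count was the same in H2B. Of 2782 rows at 5 FPKM or more, 41.7% did so. The H2A and H2B rows were counted with no floor.

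Hist1h2bc was the most abundant member of the whole cluster and nearly level. It had 78.0 FPKM in DTA and 70.7 FPKM in control at day 1, and 75.7 FPKM in DTA and 78.1 FPKM in control at day 5. The DTA and control values overlap. Only 2.41% of the 50-base windows in its coding sequence were unique, but its row runs far past the stop codon.

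Hist1h2bj was next among the H2B rows, with 20.8 FPKM in DTA and 16.9 FPKM in control at day 1, and 27.4 FPKM in DTA and 17.8 FPKM in control at day 5. Hist1h2bk had 17.2 FPKM in DTA and 15.3 FPKM in control at day 1, and 22.9 FPKM in DTA and 16.9 FPKM in control at day 5. Hist1h2bl had 16.5 FPKM in DTA and 14.8 FPKM in control at day 1, and 21.4 FPKM in DTA and 16.3 FPKM in control at day 5. In each of these the DTA libraries lay above the controls, by 0.15 to 0.28 at day 1 and by 0.37 to 0.59 at day 5.

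Hist1h2bn had 13.9 FPKM in DTA and 11.3 FPKM in control at day 1, and 18.8 FPKM in DTA and 12.9 FPKM in control at day 5. Hist1h2bm had 13.1 FPKM in DTA and 11.9 FPKM in control at day 1, and 15.6 FPKM in DTA and 12.3 FPKM in control at day 5. Hist1h2bg had 13.3 FPKM in DTA and 10.7 FPKM in control at day 1, and 15.5 FPKM in DTA and 12.4 FPKM in control at day 5. These 3 rows also had both DTA values above both control values, with differences of 0.13 to 0.51.

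In Hist1h2bf and Hist1h2bh the differences were small. Hist1h2bf had 17.5 FPKM in DTA and 12.5 FPKM in control at day 1, and 18.4 FPKM in DTA and 17.4 FPKM in control at day 5. Hist1h2bh had 18.5 FPKM in DTA and 15.9 FPKM in control at day 1, and 21.2 FPKM in DTA and 19.0 FPKM in control at day 5. Their differences were 0.46 and 0.20 at day 1 and 0.07 and 0.15 at day 5. The day 5 differences were below 0 after scaling by the median ratio, and DTA day 1 lay below control day 5 in Hist1h2bh, so no direction is given for day 5.

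Hist1h2bb had 7.97 FPKM in DTA and 6.46 FPKM in control at day 1, and 8.90 FPKM in DTA and 6.59 FPKM in control at day 5. Hist1h2bp had 7.32 FPKM in DTA and 6.04 FPKM in control at day 1, and 8.71 FPKM in DTA and 6.69 FPKM in control at day 5. Both were higher in DTA on each day. Hist1h2be, whose row spans 37455 bases and overlaps Hist1h1e, ranged from 2.50 to 4.82 FPKM, and the rows of Hist1h2bq from 2.01 to 3.88 FPKM.

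Hist1h2ba, known for its role in the chromatin of male germ cells, had the widest swing of any H2B row. It stood at 12.01 FPKM in DTA and 15.1 FPKM in control at day 1, and at 20.7 FPKM in DTA and 10.6 FPKM in control at day 5. The difference was -0.31 at day 1 and 0.90 at day 5, just short of the size of 1. The control libraries themselves differed by -0.47 (day 5 minus day 1).

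Linker histone H1 compacts the fibre between nucleosomes. Hist1h1c, the H1.2 gene, carried most of the class and was the only member called lower. It had 51.6 FPKM in DTA and 64.6 FPKM in control at day 1, and 13.04 FPKM in DTA and 69.9 FPKM in control at day 5, a 5.36-fold lower level in DTA. The day 5 difference of -2.34 was the 83rd lowest among 9925 rows. The 4 values put DTA day 5 far below the other 3 libraries, which lay within 51.6 to 69.9 FPKM, and Hist1h1c was also the member called lower when DTA day 5 was set against DTA day 1 (-1.91, where 6.07% of 2733 rows were called, 2.67% higher and 3.4% lower). Of its coding windows 78.1% were unique, and at most 574 fragments lay behind its value in DTA day 5 and 3870 behind that in control day 5.

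None of the other H1 genes was called. Hist1h1e had 6.00 FPKM in DTA and 6.12 FPKM in control at day 1, and 5.48 FPKM in DTA and 6.83 FPKM in control at day 5. Hist1h1d ranged from 1.21 to 1.41 FPKM and Hist1h1a from 0.702 FPKM in DTA day 1 to 2.24 FPKM in DTA day 5. Hist1h1b and the testis form Hist1h1t stayed below 1 FPKM. At day 5 the differences were -0.27 for Hist1h1e, 0.05 for Hist1h1d and 0.68 for Hist1h1a, so the low H1 sum in DTA day 5 is that of Hist1h1c.

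Hist1h1c is set here beside H4 members by promoter, because they moved most and in opposite directions. RefSeq promoter sequences (GRCm38.p6, from 250 bases before to 50 after the annotated start) were found for 49 of the 53 symbols. Capitals mark, on either strand, the CCAAT box, the TATA box string TATAAA, the octamer ATTTGCAT and the H1 box string AAACACA.
Hist1h1c: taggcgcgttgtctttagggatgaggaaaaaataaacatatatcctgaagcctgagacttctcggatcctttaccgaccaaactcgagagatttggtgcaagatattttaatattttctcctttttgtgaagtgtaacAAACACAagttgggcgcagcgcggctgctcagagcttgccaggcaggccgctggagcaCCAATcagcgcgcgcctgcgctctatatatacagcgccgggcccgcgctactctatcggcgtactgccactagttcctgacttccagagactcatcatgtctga
Hist1h4h: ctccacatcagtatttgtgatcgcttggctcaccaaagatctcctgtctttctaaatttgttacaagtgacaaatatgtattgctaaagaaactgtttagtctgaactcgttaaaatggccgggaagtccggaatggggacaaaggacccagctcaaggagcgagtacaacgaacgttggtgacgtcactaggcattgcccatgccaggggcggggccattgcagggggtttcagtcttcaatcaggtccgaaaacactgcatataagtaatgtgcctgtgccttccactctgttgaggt
Hist1h4j: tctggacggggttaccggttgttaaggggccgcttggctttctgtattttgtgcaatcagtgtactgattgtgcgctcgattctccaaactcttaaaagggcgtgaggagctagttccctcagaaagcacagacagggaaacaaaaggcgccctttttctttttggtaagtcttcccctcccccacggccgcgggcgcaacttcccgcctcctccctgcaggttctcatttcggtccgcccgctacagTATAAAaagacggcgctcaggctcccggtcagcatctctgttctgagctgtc
On GRCm38.p6 these are chr13:23738557-23738856 (plus strand), chr13:23530794-23531093 (plus) and chr13:21734784-21735083 (plus). Hist1h1c held CCAAT and AAACACA, Hist1h4j held TATAAA, and none of the 4 strings was in the window of Hist1h4h.

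Across the cluster the strings divided by class. CCAAT stood in all 6 H1, 12 H2A, 13 H2B and 7 H3 promoters that were found and in 3 of 11 H4 promoters, beside 37.9% of 27025 promoters in the table. AAACACA, the core of the H1 box, stood in 5 of 6 H1 promoters, 2 of 12 H2A promoters, 2 of 13 H2B promoters and none of H3 or H4, beside 7.14% of all. ATTTGCAT, the octamer known from H2B genes, stood in 5 of 13 H2B promoters and in 5 of 12 H2A promoters, beside 1.75% of all; neighbouring H2A and H2B genes that start back to back can share one promoter stretch. TATAAA stood in 31 of 49, beside 14.2% of all. A match is a string in this window and not a shown site.

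High H4 differences occurred in every stretch of the cluster that holds H4 rows. The members fell into 4 stretches separated by gaps of over 150 kb, with 21 rows over 122 kb, 5 over 8.45 kb, 29 over 233 kb and 2 over 1.08 kb. Median day 5 differences of the H4 rows were 1.43, 1.41 and 1.38 in the first 3 stretches, each among rows of other classes with smaller differences. Among 51 other gene rows between the first and last member, Hfe and Zfp322a reached 5 FPKM. Hfe, which takes part in iron sensing, had 2.84 FPKM in DTA and 8.17 FPKM in control at day 1, and 2.60 FPKM in DTA and 5.46 FPKM in control at day 5. Zfp322a had 6.74 FPKM in DTA and 8.01 FPKM in control at day 1, and 5.10 FPKM in DTA and 6.08 FPKM in control at day 5.

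**Figure D4:**
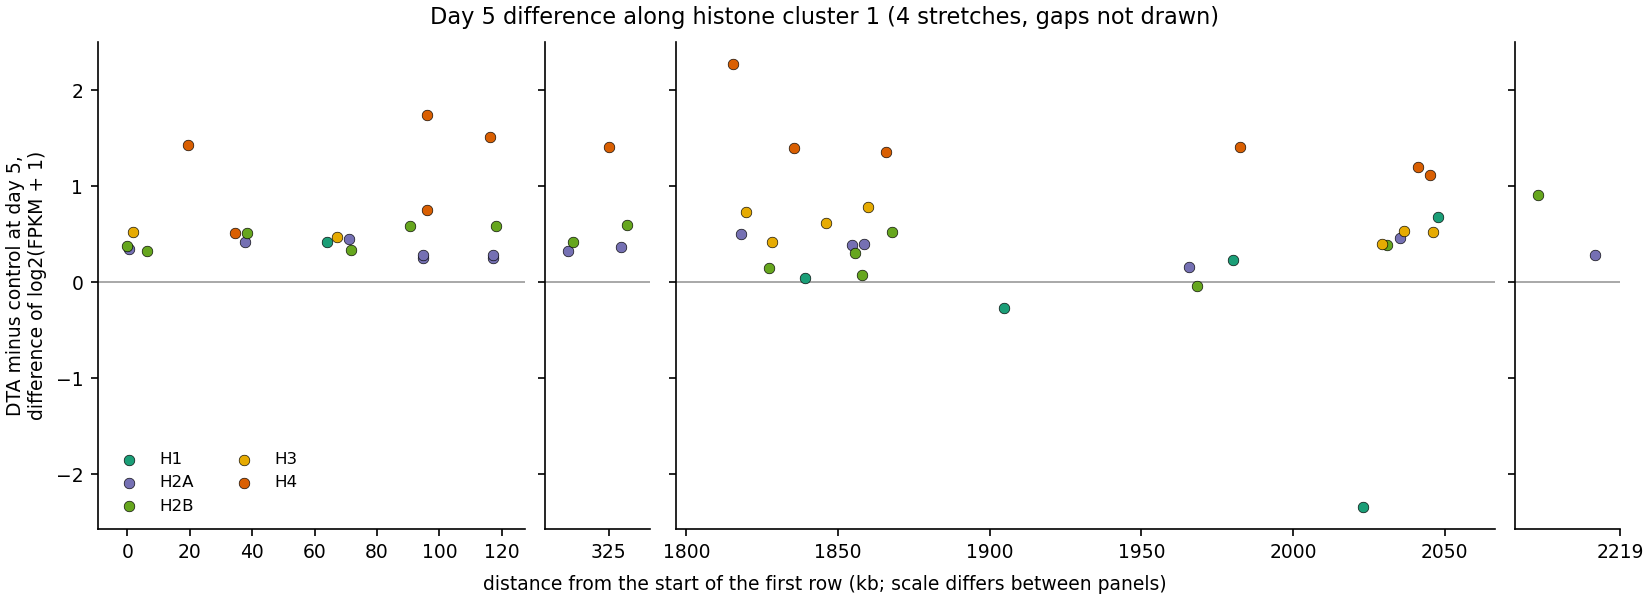
Day 5 difference of log2(FPKM + 1), DTA minus control, of each member against its distance from the start of the first row, in kb, with 1 panel per stretch. The panels have different scales and the gaps between them are not drawn. H4 rows in the first 3 stretches lie between 1.12 and 2.27 except Hist1h4k (0.51) and Hist1h4n at 21903653 (0.75), above H2A, H2B, H3 and H1 rows close by, and Hist1h1c lies at -2.34.

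Set side by side over the 4 libraries, 43 of 57 members had both DTA libraries above both controls and 2, both of H1, had both below. Among 2782 rows at 5 FPKM or more, 41.7% lay above and 10.2% below in this way. The members were counted with no floor, and only 35 of the 57 reached 5 FPKM in a library, so the sets are unlike. By class the count above was 11 of 12 in H4, 7 of 9 in H3, 12 of 15 in H2A, 12 of 15 in H2B and 1 of 6 in H1. The difference at day 5 minus that at day 1 had a median of 0.52 in H4, 0.20 in H2A, 0.19 in H2B, 0.14 in H3 and -0.10 in H1, beside 0.22 over all rows at 5 FPKM or more. The median H4 difference was 0.11 for DTA day 5 minus DTA day 1 and -0.37 for control day 5 minus control day 1. The log2 ratio of the H4 sum was 0.02 for DTA day 5 against DTA day 1 and -0.49 for control day 5 against control day 1. The wider H4 difference at day 5 therefore came mainly with a lower level in the control of that day, while the H4 sum in DTA was nearly the same on both days.

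Histone genes outside the cluster were set beside it. Of 16 rows of the smaller clusters, 11 of them at 5 FPKM or more, 1 was called higher and 0 lower at day 5. Over all rows at 5 FPKM or more, 6.82% were called higher and 1.78% lower, so the count is near the general share. The row called was Hist2h4 on chromosome 3, also an H4 gene, with 15.8 FPKM in DTA and 2.61 FPKM in control, a difference of 2.22. Hist2h3c1 (18.3 FPKM in DTA and 13.8 FPKM in control), Hist2h2ab (7.03 FPKM in DTA and 5.13 FPKM in control) and Hist2h3c2-ps (11.9 FPKM in DTA and 15.9 FPKM in control) were not called, and the median of the 16 was 0.17. At day 1 the 3 rows measured had a median of 0.20 and none was called. Among 12 replacement variants, which are made outside S phase, 9 were at 5 FPKM or more at day 5. Of these 1 was called higher and 0 lower, again near the share over all rows. It was H3f3b (H3.3), with 565 FPKM in DTA and 258 FPKM in control. H2afj had 9.80 FPKM in DTA and 4.89 FPKM in control at day 5, H2afz 48.9 FPKM in DTA and 33.1 FPKM in control, and H3f3a 248 FPKM in DTA and 177 FPKM in control, all short of the size rule. The list had a median of 0.27 at day 5 and -0.01 over the 5 rows measured at day 1.

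Most genes for the making of histone mRNA were not called. Of 17 rows for processing and transcription factors, 15 of them at 5 FPKM or more, 2 were called higher and 0 lower at day 5, where 6.82% of all rows were called higher. The median of the 17, taken with no floor, was 0.44, beside 0.06 over all rows with no floor and 0.26 over all rows at 5 FPKM or more. Slbp had 14.2 FPKM in DTA and 5.91 FPKM in control, and Lsm11, a part of the U7 particle that cuts histone pre-mRNA, had 12.2 FPKM in DTA and 5.06 FPKM in control. Casp8ap2 had 9.57 FPKM in DTA and 5.21 FPKM in control, and Cpsf2 14.7 FPKM in DTA and 8.63 FPKM in control, neither of them called. Of 16 histone chaperones, 14 of them at 5 FPKM or more, 1 was called higher, a share near that of all rows. Asf1b, an H3-H4 chaperone, had 7.87 FPKM in DTA and 1.99 FPKM in control. At day 1 none of the 4 processing factors or 4 chaperones measured was called, with medians of 0.25 and 0.09.

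S phase genes were 0 called of 26 at day 5, where 6.82% of all rows at 5 FPKM or more were called higher and 1.78% lower. The median of the 26, taken with no floor, was 0.57. Over all rows the median was 0.06 with no floor, 0.24 at 1 FPKM or more and 0.26 at 5 FPKM or more. At day 1, 0 of 8 were called, with a median of 0.05. Only 8 of the 26 reached 5 FPKM at day 5 and 0 of 8 at day 1. Mcm6 (4.90 FPKM in DTA and 1.20 FPKM in control at day 5) passed the size of 1 with 1.43 but missed the floor. Gins2 (2.90 FPKM in DTA and 0.798 FPKM in control) did likewise with 1.12. Tyms was slightly lower in DTA at day 5, at -0.08. Mcm2 had 5.04 FPKM in DTA and 2.09 FPKM in control at day 5, Mcm4 6.58 FPKM in DTA and 3.01 FPKM in control, Mcm7 8.70 FPKM in DTA and 4.85 FPKM in control, and Pcna 47.9 FPKM in DTA and 31.7 FPKM in control. The 8 rows measured at day 1 had a median level of 0.154 FPKM in DTA, so low that log2(FPKM + 1) holds their differences near 0, and nothing is read from them.

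Other measures moved with these results, and their part in them was not tested. Of all rows at 5 FPKM or more, 2.09% were called higher and 0.533% lower at day 1. The shares were 6.82% and 1.78% at day 5, and 0.868% and 1.72% between the controls. Counts below are out of all rows measured, including rows under 5 FPKM. Small RNAs without a poly(A) tail were called in both directions. At day 1, 4 were higher and 1 lower of 36 (30 at 5 FPKM or more). At day 5, 35 were higher and 14 lower of 129 (98 at 5 FPKM or more). Between the controls, 20 were higher and 22 lower of 129 (93 at 5 FPKM or more). Short rows of other genes, of 300 to 550 bases, had a median difference of 0.10 at day 5, against 1.41 in H4. These were 21 rows at 1 FPKM or more, a lower floor than that used for calls. Microglia and macrophage markers were called higher in 11 of 16 rows at day 5, with summed levels of 195 FPKM in DTA and 29.7 FPKM in control, none of the 16 at 0; the 4 measured at day 1 summed to 4.24 FPKM in DTA and 3.15 FPKM in control. Rod markers were called lower in 12 of 16 rows at day 5, with 6133 FPKM in DTA and 20068 FPKM in control, and 0 of 4 at day 1; none was at 0 in any library. Lens markers summed to 51.4 FPKM in DTA and 375.5 FPKM in control at day 5 (1 of 19 at 0 in DTA), and to 2312 FPKM in DTA and 1104 FPKM in control over the 9 measured at day 1, and 18 of 19 were called lower in control day 5 than in control day 1. Cone markers were called lower in 5 and higher in 1 of 10 rows at day 5, with 561 FPKM in DTA and 810.5 FPKM in control. Pigment epithelium markers summed to 72.2 FPKM in DTA and 180.7 FPKM in control at day 5 (1 of 12 called lower), and 5 of 12 were called lower in control day 5 than in control day 1. Red blood cell markers summed to 64.7 FPKM in DTA and 32.5 FPKM in control at day 5 (0 of 7 called), and 3 of 7 were called lower in control day 5 than in control day 1. Lymphocyte and neutrophil markers were low, with 2.39 FPKM in DTA and 0.487 FPKM in control at day 5 over 13 rows and 0 called.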

How the data were processed

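RNA of whole mouse retina was sequenced in 4 libraries, 1 per group, from an Illumina mRNA-seq preparation per the labels' protocols. The deposited values are the authors' FPKM per gene, with bounds and a status. Tools and build named in the submitters' processing notes, with no role or order, are Cufflinks 2.1.1, bcl2fastq 1.8.4, CASAVA 1.8.2 and mm9. Neither the aligner, the annotation nor the handling of reads with several matches is named there or in the labels. The DTA day 1 file as used here holds 5847 rows and the others 23021 each. Its FPKM were used as listed, on the assumption that they were scaled to the whole library. All members are in it, but only part of the other lists. Of the other histone, processing, chaperone and S phase genes, those with a DTA day 1 value lay on chromosomes 1, 10, 11, 12 and 13. Day 1 shares, ranks and list medians describe only the rows of that file. Rows of status FAIL or HIDATA were read as missing; no member had either, and 3 members had the low data status in each library.

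Rows were joined on symbol and locus, with 1 added to each start. Differences are of log2(FPKM + 1); no test was possible. Members of at least 5 FPKM in 1 library were named with every value, those of 1 to 5 FPKM with their range, and of other lists up to 4 with the largest difference. The members, lists and size rule were chosen with earlier results of these data known. Coding sequences came from a reference annotation of the same build (all 57 rows matched), promoters from RefSeq on GRCm38.p6. Alternatives were another pseudocount, floor, scaling or control, and rows left out or summed. Python 3.11.15, numpy 2.4.6, pandas 2.3.3 and matplotlib 3.10.9 were used.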

Additional observations from a re-analysis of the deposited data

Results flagged for a closer look

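The differences of Hist1h2ba and Hist1h2bc had opposite signs at day 1 and day 5. The Hist1h2ba difference, DTA minus control, was -0.31 at day 1 and 0.90 at day 5, and that of Hist1h2bc was 0.14 at day 1 and -0.044 at day 5. Hist1h2bc was nearly level, and its sign turned at day 1 and at day 5 against the control of the other day. The sign of Hist1h2ba turned at day 1 against that control. With 1 library per group the difference between the days was not tested.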

How the results depend on the processing

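No paired analysis was possible because each group has 1 library. The main results were the counts called, the medians over all members, the H4 sums of DTA against control and the day 5 H1 sum. Among these, 126 alternative values stayed close to the reported ones and 22 moved. For sums and medians, close meant within a distance set by the half-widths of the authors' intervals, and for counts within a set ratio. Many of those intervals do not hold the FPKM itself, so the split into close and moved is rough. A change of direction was looked for only in sums and medians with a reported size of 1 or more, and 0 were found. Smaller medians and the counts could not be marked as reversed. The count called at day 1, reported as 3, was 6 with a pseudocount of 0.1, 0 with a pseudocount of 5, 10 against the control of the other day, 7 against the mean of both controls, and 1 without rows ending at the coding sequence. At day 5, reported as 10, it was 3 with a pseudocount of 5, 6 against the control of the other day and 3 without rows ending at the coding sequence. For DTA day 5 against DTA day 1, reported as 1, it was 2 with a pseudocount of 0.1, with a floor of 1 FPKM, with no floor and with median-ratio scaling. The share of all rows called was not computed under the alternatives, so these counts have no background beside them. The log2 ratio of the H4 sum at day 5, reported as 1.60, was 1.34 with median-ratio scaling, 1.38 with scaling to summed FPKM, leaving photoreceptor and very abundant genes aside, 1.11 against the control of the other day, 1.34 against the mean of both controls and 2.02 without rows ending at the coding sequence. At day 1, reported as 1.09, it was 1.58 against the control of the other day and 1.31 against the mean of both controls. The log2 ratio of the H1 sum at day 5, reported as -1.79, was -2.06 with median-ratio scaling, -2.01 with sum scaling and -2.05 without members that overlap another row. The cause of these moves was not tested beyond what each alternative removes. Leaving out rows that end at the coding sequence, and summing rows of 1 symbol, were chosen after seeing the data. Hist1h1c at day 5 was called under all 12 alternatives that give it a value (-2.59 to -2.05), and Hist1h4h at day 5 under all 12 (1.19 to 2.99). No member called at day 1 was called with a pseudocount of 5. Of the other day 5 calls, Hist1h4a was lost under both scalings, Hist1h4b with median-ratio scaling, and Hist1h4a, Hist1h4c, Hist1h4i and Hist1h4n against the control of the other day; all but Hist1h4i were lost with a pseudocount of 5. Among members that were not called, signs turned for Hist1h2bf and Hist1h2bh at day 5 under both scalings, for Hist1h2ba, Hist1h2bc and Hist1h2bh at day 1 and Hist1h2bc and Hist1h4n (21903653) at day 5 against the control of the other day, and for Hist1h2bc at day 5 against the mean of both controls. Low levels in the controls, 1 library per group and reads shared between near copies limit every single row.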
